A study of Homo sapiens with 18 samples.

Results

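The genes described are 10 members of the MHC class II pathway, taken by their symbols from a table of 56609 gene symbols counted in 18 RNA-seq libraries. They comprise the 6 genes of the classical chains (HLA-DRA, HLA-DRB1, HLA-DQA1, HLA-DQB1, HLA-DPA1 and HLA-DPB1), the 2 genes of the peptide exchange factor HLA-DM (HLA-DMA and HLA-DMB), the invariant chain gene CD74 and the coactivator gene CIITA. All 10 passed the minimum of 10 counts in total that left 31872 genes to test, and their unstimulated levels, the differences between the lines and the ratio of CpG-stimulated to unstimulated cells are given.

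The libraries came from HG3, MEC2 and PCL12, 3 EBV-positive lines derived from chronic lymphocytic leukemia (CLL), a malignancy of mature B cells. MEC2 carries mutated IGHV genes, whereas those of HG3 and PCL12 are unmutated. Cells of each line were left unstimulated or received ODN-2006, a synthetic CpG oligonucleotide that activates the endosomal DNA receptor TLR9, at 2.5 μg/ml for 4 h, with 3 libraries per group. Each line is a single established line, so a difference between lines is a difference between these cultures, and the labels do not say that replicates came from separate cultures.

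MHC class II molecules are pairs of an alpha and a beta chain that present peptides from endosomes to CD4+ T cells. In B cells they are expressed constitutively. The invariant chain, encoded by CD74, occupies the groove of new molecules, and HLA-DM replaces its last fragment with peptide while HLA-DO restrains HLA-DM. Transcription of these genes depends on CIITA, which does not bind DNA itself but is recruited by RFX, CREB and NF-Y at a shared promoter module of X and Y boxes.

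Depth lay between 20382943 and 67308932 counts per library, which puts the level allowed by a count of 0 (3 counts) between 0.0446 and 0.147 CPM (counts scaled to the size of the library). B-cell markers were present throughout (MS4A1 at 589 to 1842 CPM), whereas the monocyte markers CD14, CSF1R, LYZ and FCGR3A did not exceed 1.33 CPM in any library. Of the T-cell markers, TRAC was counted at 35.7 to 140 CPM, and the highest value of any other was 2.37 CPM. Dendritic cell markers summed to 0.756 to 3.53 CPM in HG3, 10.4 to 50.9 CPM in MEC2 and 48.3 to 114 CPM in PCL12, where ITGAX reached 108 CPM. Summed levels of 4 plasma cell markers were 88.3 to 333 CPM in HG3, 131 to 178 CPM in MEC2 and 260 to 408 CPM in PCL12. Unstimulated HG3 replicate 2 and CpG-stimulated MEC2 replicate 2 stood apart with 20.2% and 19.7% mitochondrial counts, against 2.82% to 9.28% in the other 16 libraries. In replicates 2 and 3 of PCL12, stimulated and unstimulated, the 45 genes chosen as abundant in MEC2 but scarce in the first PCL12 replicate had a median level between 29.1% and 31.3% of that in MEC2. In the same libraries, 32 genes chosen as abundant in PCL12 replicate 1 but scarce in MEC2 had medians of 67.7% to 79.5% of the replicate 1 level. How transcripts found in MEC2 came to be counted in these 4 libraries was not tested, and the differences of the members and the calls of other named genes between unstimulated PCL12 and HG3 are given with and without them. NFKBIZ, a known TLR9 target, rose after CpG in MEC2 from 36.7, 24.2 and 24.5 CPM to 144, 160 and 87.2 CPM, the only line in which it passed in the unpaired fit (Log2FC 2.20, edgeR adjusted p = 0.0154). In PCL12 it went from 37.9, 60.4 and 37.4 CPM to 173, 174 and 97.2 CPM without overlap (Log2FC 1.71, adjusted p = 0.541), and in HG3 from 126, 93.0 and 225 CPM to 202, 206 and 293 CPM, with overlap between the groups but a higher value in each of the 3 pairs (Log2FC 0.66, adjusted p = 1.00). With the replicate pairs as a block NFKBIZ passed in MEC2 and PCL12 and not in HG3 (edgeR adjusted p = 1.40e-19, 2.56e-11 and 0.139). In that fit the spread of the median gene was taken wholly from the trend over all genes. These p values may therefore not reflect the spread of NFKBIZ between its own pairs.

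In GENCODE release 44 on GRCh38, the human genome build that the labels name as hg38, 8 of the members lie within 649.8 kb of chromosome 6, from 32439878 to 33089696. The CD74 gene is on chromosome 5 (150401637 to 150412969, minus strand) and CIITA on chromosome 16 (10866222 to 10943021, plus strand). RefSeq promoter windows (GRCh38.p14) of 250 bases before to 50 bases after the gene start were at hand for 8 members, without HLA-DRA and CIITA, with 2 windows for HLA-DPA1. The HLA-DPA1 stretch from 33080759 to 33080878 lies within the HLA-DPB1 gene, which is on the opposite strand (33075990 to 33089696, plus strand). Since the chain genes differed together between the lines, stretches of 120 bases that end 11 bases before the RefSeq gene start are printed here in the direction of transcription. Capitals mark CCAAT or ATTGG, the core of the Y box bound by NF-Y, and TGATG or TGACG with their reverse complements CATCA and CGTCA, which resemble the X2 box bound by CREB. The HLA-DQA2 and HLA-DQB2 stretches are added because these near copies of HLA-DQA1 and HLA-DQB1 showed another pattern.
HLA-DRB1 (chr6:32589859-32589978, minus strand): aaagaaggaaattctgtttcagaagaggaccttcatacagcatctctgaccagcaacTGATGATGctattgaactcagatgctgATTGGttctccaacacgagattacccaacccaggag
HLA-DQA1 (chr6:32637276-32637395, plus strand): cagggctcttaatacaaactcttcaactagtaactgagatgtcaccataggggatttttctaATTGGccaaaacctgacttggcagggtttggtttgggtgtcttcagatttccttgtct
HLA-DQA2 (chr6:32741261-32741380, plus strand): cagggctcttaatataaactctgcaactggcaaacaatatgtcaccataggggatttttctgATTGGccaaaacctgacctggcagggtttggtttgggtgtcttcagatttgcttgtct
HLA-DQB1 (chr6:32666668-32666787, minus strand): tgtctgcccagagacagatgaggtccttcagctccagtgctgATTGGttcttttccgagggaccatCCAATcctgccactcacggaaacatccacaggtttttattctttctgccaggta
HLA-DQB2 (chr6:32763543-32763662, minus strand): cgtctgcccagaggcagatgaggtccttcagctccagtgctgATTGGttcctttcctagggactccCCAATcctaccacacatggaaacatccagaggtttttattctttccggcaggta
HLA-DPA1 (chr6:33080759-33080878, minus strand): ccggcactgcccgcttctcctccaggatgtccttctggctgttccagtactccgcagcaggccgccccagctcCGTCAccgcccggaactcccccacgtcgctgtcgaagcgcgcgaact
HLA-DPA1 (chr6:33073660-33073779, minus strand): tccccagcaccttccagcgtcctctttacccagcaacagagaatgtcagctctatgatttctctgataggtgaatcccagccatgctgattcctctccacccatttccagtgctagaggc
HLA-DPB1 (chr6:33075860-33075979, plus strand): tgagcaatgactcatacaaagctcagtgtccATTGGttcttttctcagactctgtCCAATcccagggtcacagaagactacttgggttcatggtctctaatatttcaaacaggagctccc
HLA-DMA (chr6:32953108-32953227, minus strand): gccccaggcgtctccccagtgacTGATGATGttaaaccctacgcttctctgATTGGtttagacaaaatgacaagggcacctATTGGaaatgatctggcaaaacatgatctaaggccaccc
HLA-DMB (chr6:32941039-32941158, minus strand): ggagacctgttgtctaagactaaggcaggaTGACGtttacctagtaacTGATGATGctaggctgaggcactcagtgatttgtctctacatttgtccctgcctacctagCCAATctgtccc
CD74 (chr5:150412921-150413040, minus strand): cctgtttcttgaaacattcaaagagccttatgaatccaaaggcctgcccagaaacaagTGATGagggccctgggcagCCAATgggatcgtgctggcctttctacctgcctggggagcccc

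CCAAT or ATTGG occurred in the windows of 7 of the 8 members, all except HLA-DPA1, and in 34.6% of all 35116 windows. None of the 8 members held it 15 to 35 bases from TGACG or CGTCA on either strand, an arrangement found in 2.81% of all windows. With TGATG or CATCA in place of TGACG, a choice made after the sequences had been seen, the arrangement occurred in CD74, HLA-DMA and HLA-DRB1 and in 2.98% of all windows. The longer word CTGATTGG or CCAATCAG, chosen in the same way and overlapping ATTGG or CCAAT, was present in HLA-DMA, HLA-DQB1 and HLA-DRB1 and in 3.97% of all windows. Compared base by base without gaps, HLA-DQA1 and HLA-DQA2 shared 109 of the 120 bases (90.8%), and HLA-DQB1 and HLA-DQB2 shared 107 (89.2%).

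The first comparison asked how the class II genes differ between unstimulated lines. All 6 classical chain genes were highest in HG3 and lower in both MEC2 and PCL12, by 1.79 to 4.08 fold in MEC2 and by 2.67 to 4.57 fold in PCL12. CIITA did not follow them, at 206 ± 89.1 CPM in HG3, 176 ± 24.8 CPM in MEC2 and 250 ± 47.6 CPM in PCL12 (mean ± SD, n = 3 libraries). Together the 10 members took 1.02% to 1.16% of all counts in unstimulated HG3, 0.534% to 0.659% in MEC2 and 0.419% to 0.610% in PCL12. In edgeR, with Benjamini-Hochberg adjustment over all tested genes, 6 of 10 members were lower in MEC2 than in HG3 at an adjusted p under 0.05, where 4.97% of all tested genes were lower, and 7 of 10 were lower in PCL12, where 4.57% were. Among the 10659 genes whose mean level reached 5 CPM, the same shares were 8.48% and 7.92%. None of the members was higher than in HG3 in either line by this rule, which 4.81% of tested genes met in MEC2 and 4.87% in PCL12. All 6 chain genes and CD74 were lower in every MEC2 and in every PCL12 library than in every HG3 library, where 10.6% and 9.36% of tested genes were so. In bulk RNA, fewer cells expressing a gene and less RNA per cell cannot be told apart.

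**Figure D1:**
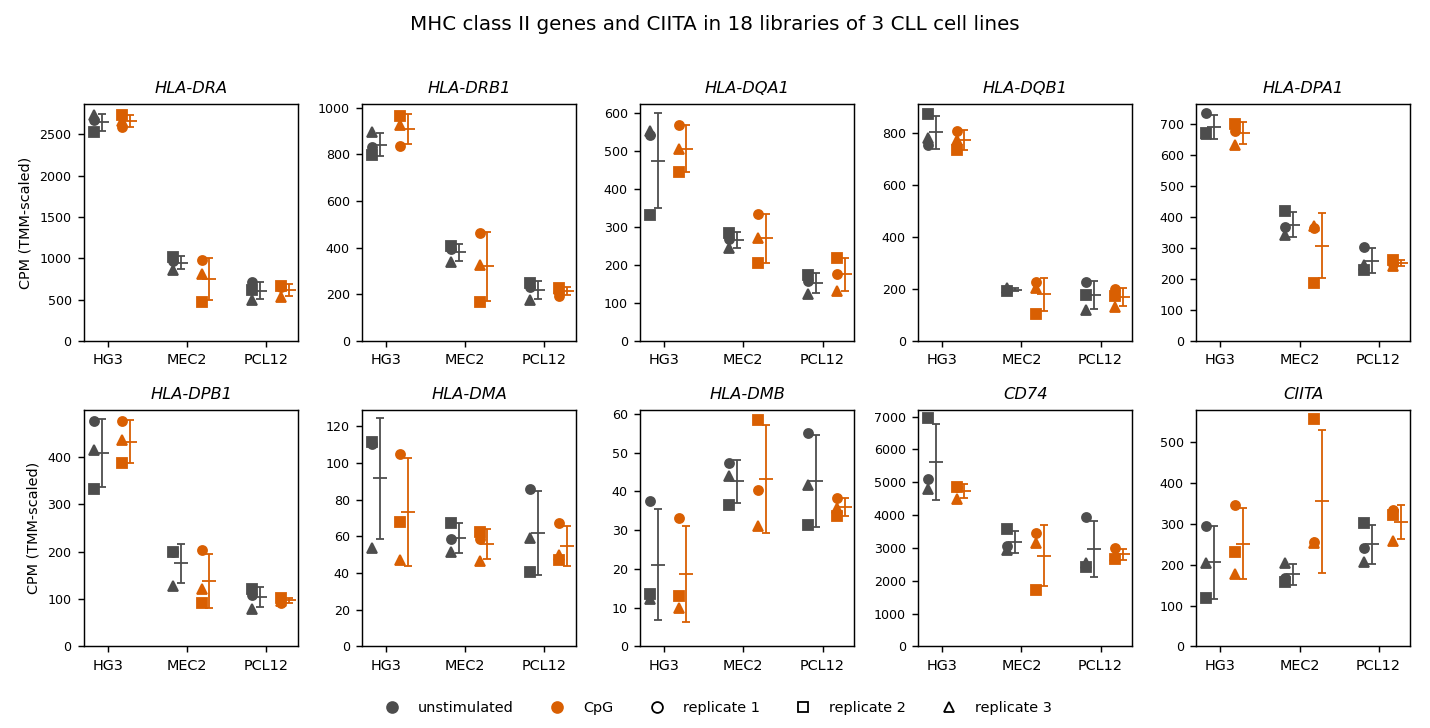
Level of each member in the 18 libraries, as CPM with TMM factors on a linear axis from 0, by cell line. Dark grey points are unstimulated and orange points CpG-stimulated libraries, symbols give the replicate number, and the bar beside each group is the mean with its SD (n = 3). Within each treatment the 6 chain genes are highest in the HG3 libraries, while CIITA in HG3 spans much of the range of the other lines, with 1 CpG-stimulated MEC2 library at 556 CPM.

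HLA-DRA encodes the alpha chain shared by all DR molecules. It was counted at 2673, 2526 and 2733 CPM in the 3 HG3 replicates, at 972, 1009 and 863 CPM in MEC2 and at 706, 621 and 499 CPM in PCL12. The 3 lines did not overlap. Its level fell by 1.48 ± 0.25 on the log2 scale (± SE) from HG3 to MEC2 (edgeR adjusted p = 0.000185) and by 2.12 ± 0.26 from HG3 to PCL12 (adjusted p = 1.82e-06).

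Its partner HLA-DRB1, the main beta chain of DR, showed the same order. The replicates had 833, 796 and 897 CPM in HG3, 393, 407 and 338 CPM in MEC2 and 231, 249 and 177 CPM in PCL12, without overlap between lines. The log2 difference from HG3 was -1.15 ± 0.27 in MEC2 (edgeR adjusted p = 0.00517) and -1.94 ± 0.28 in PCL12 (adjusted p = 1.69e-05).

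Among the DQ chains, HLA-DQB1 separated HG3 most clearly from the other lines. It stood at 751, 871 and 780 CPM in HG3, at 194, 193 and 203 CPM in MEC2 and at 227, 178 and 120 CPM in PCL12, so that the MEC2 values fell within the PCL12 range. Relative to HG3 it was 4.08-fold lower in MEC2 (log2 difference -2.03 ± 0.28, edgeR adjusted p = 1.09e-05) and 4.57-fold lower in PCL12 (-2.19 ± 0.28, adjusted p = 3.82e-06).

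HLA-DQA1, the alpha chain of DQ, varied more within HG3, with 541, 330 and 550 CPM, the lowest value being that of the library rich in mitochondrial counts. MEC2 had 268, 284 and 243 CPM and PCL12 158, 174 and 122 CPM, and again no group overlapped another. The difference from HG3 was -0.84 ± 0.26 for MEC2 (edgeR adjusted p = 0.0360) and -1.65 ± 0.26 for PCL12 (adjusted p = 7.32e-05). The call for MEC2 was lost when unstimulated HG3 replicate 1 or 3 or any 1 of the unstimulated MEC2 libraries was left out, with an adjusted p of up to 0.132.

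Levels of HLA-DPA1 were 735, 669 and 665 CPM in HG3, 366, 418 and 339 CPM in MEC2 and 303, 229 and 243 CPM in PCL12. HLA-DPB1, which encodes the beta chain of DP, had 475, 332 and 413 CPM in HG3, 200, 198 and 127 CPM in MEC2 and 109, 122 and 79.9 CPM in PCL12. For both DP genes, every HG3 library was above every MEC2 library, and every MEC2 library above every PCL12 library. From HG3 to MEC2, HLA-DPA1 differed by -0.88 ± 0.24 (edgeR adjusted p = 0.0180) and HLA-DPB1 by -1.22 ± 0.27 (adjusted p = 0.00313). From HG3 to PCL12 the differences were -1.41 ± 0.25 for HLA-DPA1 (adjusted p = 0.000226) and -1.98 ± 0.28 for HLA-DPB1 (adjusted p = 1.40e-05). The HLA-DPA1 call for MEC2 was lost without unstimulated HG3 replicate 1 or MEC2 replicate 1 or 3 (adjusted p of up to 0.0864).

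CD74 followed the chains with a smaller difference. It had 5106, 6946 and 4793 CPM in HG3, 3066, 3573 and 2931 CPM in MEC2 and 3956, 2411 and 2551 CPM in PCL12. HG3 lay above both other lines in every library, while MEC2 and PCL12 overlapped. The log2 difference from HG3 was -0.92 ± 0.27 in PCL12 (edgeR adjusted p = 0.0302) and -0.82 ± 0.27 in MEC2, which did not pass the threshold (adjusted p = 0.0567). In MEC2 it passed in 5 of 10 alternative fits. Of 18 leave-one-out fits it passed in 1, without CpG-stimulated MEC2 replicate 2 (edgeR adjusted p = 0.016). Without PCL12 replicates 2 and 3 the difference from PCL12 was -0.49 ± 0.45 and no longer passed (edgeR adjusted p = 0.730), and it was also lost without unstimulated HG3 replicate 2 or without only 1 of those PCL12 libraries (adjusted p = 0.110 to 0.166).

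The 2 genes of HLA-DM did not share the pattern of the chains. HLA-DMA stood at 110, 111 and 53.8 CPM in HG3, 58.3, 67.5 and 51.3 CPM in MEC2 and 85.8, 40.4 and 59.4 CPM in PCL12, with overlap between all lines (edgeR adjusted p = 0.230 and 0.284 against HG3). HLA-DMB had 37.5, 13.6 and 12.2 CPM in HG3, 47.4, 36.5 and 43.99 CPM in MEC2 and 55.0, 31.2 and 41.7 CPM in PCL12. Only HG3 replicate 1 reached the range of the other lines. The CpG-stimulated library of that replicate was also the highest of its group, at 33.0 CPM against 13.1 and 10.0 CPM. The log2 difference of HLA-DMB from HG3 was 1.01 ± 0.41 in both MEC2 and PCL12 (adjusted p = 0.141 in each). Without unstimulated HG3 replicate 1 the difference was 1.73 in MEC2 and 1.74 in PCL12 and passed in both (edgeR adjusted p = 0.00484 and 0.00496), whereas without replicate 2 or 3 of unstimulated HG3 it shrank to between 0.73 and 0.80 and did not pass (adjusted p of up to 0.385).

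CIITA was counted at 296, 117 and 205 CPM in HG3, 167, 157 and 204 CPM in MEC2 and 241, 301 and 207 CPM in PCL12. The HG3 libraries spanned nearly the whole range of the other lines, with the lowest value in the library rich in mitochondrial counts. Its log2 difference from HG3 was -0.23 ± 0.32 in MEC2 (edgeR adjusted p = 0.750) and 0.28 ± 0.32 in PCL12 (adjusted p = 0.669). Missing the threshold does not show that the lines were equal in CIITA. Leaving out single libraries moved these differences between -0.49 and 0.14 and between 0.02 and 0.65.

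**Figure D2:**
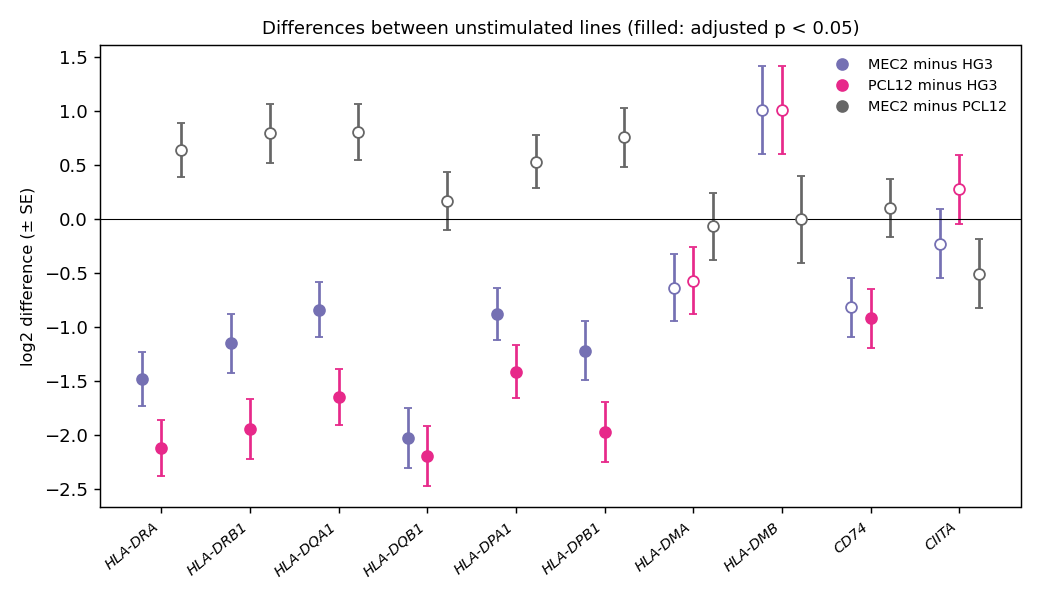
Log2 difference between unstimulated lines for each member (points) with the standard error of the edgeR fit (bars). Filled points have an adjusted p under 0.05, which holds for the 6 chain genes in both comparisons with HG3, for CD74 in PCL12 against HG3, and for no member in MEC2 against PCL12.

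Between MEC2 and PCL12 the chain genes ranged from 0.17 to 0.81 higher in MEC2 on the log2 scale, and no member passed the threshold in edgeR, which 0.524% of tested genes did as higher and 1.53% as lower. At an unadjusted p under 0.05 there were 5 (HLA-DRA, HLA-DRB1, HLA-DQA1, HLA-DPA1 and HLA-DPB1), where 11% of all tested genes were so in either direction, with adjusted p values from 0.125 to 0.402. DESeq2 called 1 member and limma-voom 0. The same 5 genes were higher in every MEC2 library than in every PCL12 library, where 7.6% of all tested genes were so, and CIITA was lower in every MEC2 library (log2 difference -0.50 ± 0.32, adjusted p = 0.575), where 9.75% of genes were lower. Without the 2 libraries rich in mitochondrial counts, neither of which belongs to these groups, 4 members passed as higher in MEC2, as did 1.03% of tested genes. The values above include the PCL12 libraries in which transcripts found in MEC2 were counted. With replicate 1 as the only unstimulated PCL12 library, HLA-DQB1 was lower in MEC2, at -0.24 on the log2 scale. The other chain genes remained higher in MEC2, by 0.40 (HLA-DRA), 0.69 (HLA-DRB1), 0.72 (HLA-DQA1), 0.28 (HLA-DPA1) and 0.65 (HLA-DPB1). Both comparisons with HG3 share the HG3 libraries, so their values stand side by side and are not independent.

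The results for PCL12 were repeated with replicate 1 as its only libraries, which assumes that a lone library varies like those of the other groups. The chain genes remained lower than in HG3 by 1.17 to 1.89 on the log2 scale. HLA-DRA (-1.89 ± 0.46, edgeR adjusted p = 0.0150), HLA-DRB1 (-1.85 ± 0.48, 0.0234), HLA-DQA1 (-1.57 ± 0.44, 0.0370), HLA-DQB1 (-1.80 ± 0.45, 0.0172) and HLA-DPB1 (-1.88 ± 0.47, 0.0177) passed, while HLA-DPA1 did not (-1.17 ± 0.43, 0.161). The CIITA difference was 0.24 ± 0.49 (adjusted p = 0.938), that of HLA-DMA -0.08 ± 0.44 and that of HLA-DMB 1.40 ± 0.60 (adjusted p = 0.287).

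The other genes described below that were called between PCL12 and HG3 were tested in the same way. HLA-DRB5, CTSZ, CTSB and CXCR4 still passed without PCL12 replicates 2 and 3 (edgeR adjusted p = 0.00375, 0.00122, 0.0339 and 0.0255). NFYA, SOCS1, PAX5, CTSV, TAPBP, RING1, BRD2, TAP1, CLEC16A, NUBP1 and HLA-DPB2 kept their direction and did not pass. Their log2 differences from HG3 were -1.35, -1.42, 1.27, 3.63, -1.18, -0.79, -1.20, -1.02, -0.90, -0.76 and -7.37 in this order. With all libraries they were -0.99, -1.53, 1.46, 4.34, -1.35, -1.07, -1.02, -0.85, -0.83, -0.79 and -7.35. The SE was larger for each, as for NFYA (0.41 against 0.25). Between MEC2 and PCL12 the call of CTSD held (log2 difference -2.20 ± 0.38), and those of HLA-DRB5, CD44 and PSMB9 did not. Their differences were 1.61 ± 0.46, -1.42 ± 0.42 and 0.95 ± 0.44, against 1.30 ± 0.29, -1.31 ± 0.33 and 1.12 ± 0.28 with all libraries. HLA-DQA2 and HLA-DQB2 were higher in MEC2 by 5.85 and 12.9, with 9 and 0 counts in the remaining unstimulated PCL12 library. After CpG no member passed in the remaining PCL12 pair (adjusted p = 1.00 for each).

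After CpG stimulation the chain genes were again highest in HG3. Between the stimulated libraries, a comparison added after the data had been seen, all 6 chain genes were lower in MEC2 than in HG3 and in PCL12 than in HG3 at an adjusted p under 0.05, where 4.52% and 4.16% of all tested genes were lower. CD74 did not pass in this comparison in either line. The sum of the 6 chain genes lay between 5931 and 5956 CPM in stimulated HG3, 1232 and 2567 CPM in MEC2 and 1348 and 1638 CPM in PCL12. Unstimulated sums were 5525 to 6039 CPM in HG3, 2112 to 2511 CPM in MEC2 and 1241 to 1736 CPM in PCL12. CIITA in the same libraries covered 117 to 346 CPM in HG3, and its lowest value, which was the lowest of all libraries, is that of the library with 20.2% mitochondrial counts.

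**Figure D3:**
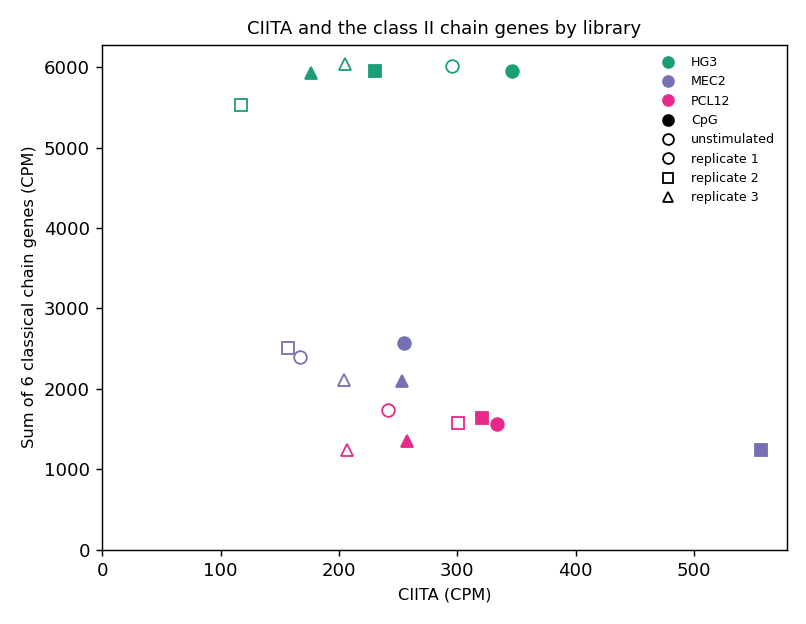
Sum of the 6 classical chain genes (CPM) against CIITA (CPM) in each library, both on linear axes from 0. Colours give the line, filled symbols CpG-stimulated and open symbols unstimulated libraries, and shapes the replicate. HG3 libraries lie at 5525 to 6039 CPM of chain genes whatever their CIITA level, and the CpG-stimulated MEC2 library with 556 CPM of CIITA has the lowest chain sum of all libraries. These 2 extremes of CIITA, 117 CPM in unstimulated HG3 and 556 CPM in MEC2, are the libraries with 20.2% and 19.7% mitochondrial counts.

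The next comparison asked whether CpG changed the class II genes within 4 h. No member passed an adjusted p under 0.05 in any line in the unpaired fits of edgeR, DESeq2 or limma-voom, whereas the paired fit called CIITA in MEC2. At an unadjusted p under 0.05 in the unpaired edgeR fit there were 0 members in HG3, 1 in MEC2 (CIITA) and 0 in PCL12, against 3.73%, 2.46% and 2.09% of all tested genes. At the adjusted threshold few genes were called, with 0.00314% higher in HG3 and in MEC2, 0.0% higher in PCL12 and 0.0% lower in each line. The fitted Log2FC of the 10 members was -0.32 to 0.28 in HG3 cells, -0.34 to 1.01 in MEC2 cells and -0.25 to 0.28 in PCL12 cells, with medians of -0.02, -0.17 and -0.05 against 0.00, 0.00 and 0.02 over all genes.

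HLA-DRA was at 2589, 2728 and 2664 CPM in stimulated HG3, at 978, 475 and 806 CPM in MEC2 and at 651, 660 and 525 CPM in PCL12. Only the second MEC2 library left the range of its unstimulated counterparts by a wide margin. That library also had the lowest value of its group in all 6 chain genes and in CD74, with pair ratios from -0.47 (HLA-DQA1) to -1.28 (HLA-DRB1) on the log2 scale, and it is the one with 19.7% mitochondrial counts. The part of the mitochondrial share in these values was not tested.

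Ratios of the chain genes went in both directions. Of 18 ratios in each line (6 genes in 3 replicate pairs), 10 were above 0 in HG3, 8 in MEC2 and 9 in PCL12. By gene, HLA-DQA1 was higher after CpG in 7 of 9 pairs, HLA-DRB1 in 5, HLA-DRA, HLA-DQB1, HLA-DPB1 and CD74 in 4, HLA-DPA1 in 3, and HLA-DMA and HLA-DMB in 2. The mean effect over the 3 lines lay between -0.19 and 0.11 on the log2 scale for the 9 members other than CIITA.

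CIITA was the member with the largest ratio after CpG. In MEC2 it went from 167, 157 and 204 CPM to 255, 556 and 253 CPM, and all 3 stimulated libraries were above all unstimulated ones, where 2.52% of tested genes were so. The pair ratios were 0.61, 1.83 and 0.31 on the log2 scale. Its fitted Log2FC of 1.01 ± 0.32 met the DEG definition of the study (nominal P under 0.01 and |Log2FC| of at least 1) as did 0.182% of tested genes in this direction, but not the adjusted threshold in edgeR (adjusted p = 1.00). The DEG definition was no longer met in limma-voom or in 11 of 18 leave-one-out fits, 8 of which dropped a library of HG3 or PCL12. The exact two-sided permutation test of the 3 against 3 libraries gave p = 0.1, the smallest it allows.

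With the replicate pairs as a block, the Log2FC of CIITA in MEC2 was 0.91 ± 0.21 and passed (edgeR adjusted p = 0.00895), among 0.295% of tested genes. In that fit the spread of a gene was taken wholly from the trend over all genes (prior degrees of freedom of CIITA without limit, against 14.1 in the fit without pairs), so the difference between the ratios 0.31 and 1.83 did not enter the error. The call rested on CpG-stimulated MEC2 replicate 2. Without that library the Log2FC was 0.54 ± 0.31 in the unpaired fit and 0.47 ± 0.21 with the block, an alternative added after the data had been seen (edgeR adjusted p = 1.00 in both).

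In HG3, CIITA went from 296, 117 and 205 CPM to 346, 230 and 176 CPM, with pair ratios of 0.23, 0.97 and -0.22. The largest of these ratios has the library rich in mitochondrial counts as its unstimulated member. PCL12 libraries changed from 241, 301 and 207 CPM to 334, 320 and 258 CPM, with ratios of 0.47, 0.09 and 0.32. CIITA was thus higher after CpG in 8 of 9 pairs. Its mean effect over the lines was 0.53 ± 0.19 (edgeR adjusted p = 1.00, where 0.00941% of tested genes were called higher and 0.0% lower), and 0.51 ± 0.12 with the block (adjusted p = 0.00805, where 0.417% were called higher). Without CpG-stimulated MEC2 replicate 2 the mean effect was 0.38 ± 0.17 in the unpaired fit and 0.37 ± 0.11 with the block, which did not pass (edgeR adjusted p = 0.0675).

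**Figure D4:**
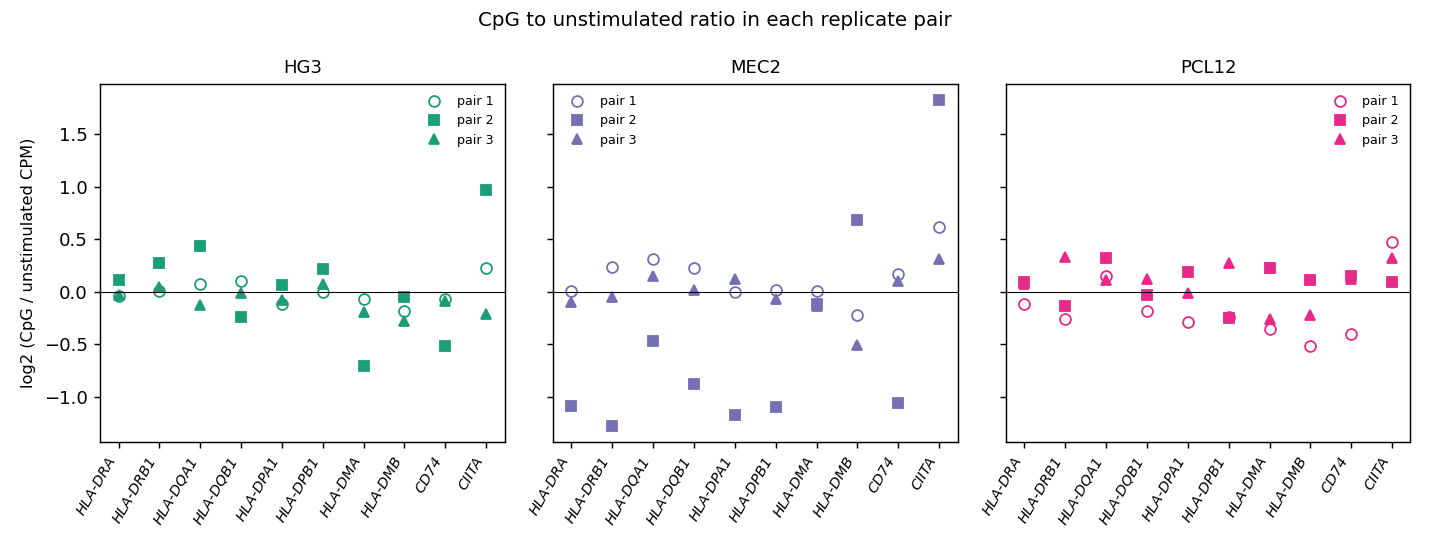
Log2 ratio of CpG-stimulated to unstimulated CPM (prior count 2) for each member, with 1 panel per line and 1 symbol per replicate pair. Ratios of the chain genes scatter around 0, pair 2 of MEC2 is lowest for the 6 chain genes and CD74, and CIITA is above 0 in 8 of 9 pairs.

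A CpG effect that differs between lines was tested directly. The effect on CIITA was 0.73 ± 0.46 larger in MEC2 than in HG3 and 0.73 ± 0.46 larger than in PCL12 on the log2 scale (edgeR adjusted p = 1.00 for each), and no member passed in any of the 3 comparisons, with 0 at an unadjusted p under 0.05, where 3.23% to 4.16% of tested genes were (4.1% for MEC2 against HG3), and 0 in DESeq2 or limma-voom. With the replicate pairs as a block, CIITA was under an unadjusted p of 0.05 in both comparisons with MEC2, with differences of 0.58 ± 0.30 and 0.62 ± 0.29 (edgeR adjusted p = 1.00), and without CpG-stimulated MEC2 replicate 2 these were 0.12 ± 0.27 and 0.18 ± 0.27. The difference from HG3 shrank to 0.23 without CpG-stimulated MEC2 replicate 2. It is therefore not shown that MEC2 differed from the other lines in this respect.

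Other class II genes, from a list of relatives, separated the lines in different ways. HLA-DRB5, a further DR beta chain carried by some haplotypes, had 297, 340 and 288 CPM in unstimulated HG3, 208, 183 and 184 CPM in MEC2 and 61.6, 96.2 and 74.6 CPM in PCL12. It fell by 1.99 ± 0.29 on the log2 scale from HG3 to PCL12 (edgeR adjusted p = 2.46e-05) and was 1.30 ± 0.29 higher in MEC2 than in PCL12 (adjusted p = 0.0103), while MEC2 and HG3 differed by -0.69 ± 0.28 (adjusted p = 0.142). Reads of HLA-DRB5 and HLA-DRB1 resemble each other, and how the counting assigned them between the genes of lines with different haplotypes is not known, so their separate levels are uncertain.

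HLA-DQA2 and HLA-DQB2, the near copies whose promoter stretches are printed above, were highest in MEC2. HLA-DQA2 was at 18.2, 19.5 and 13.7 CPM in unstimulated MEC2 and HLA-DQB2 at 29.9, 27.2 and 25.0 CPM, whereas neither exceeded 0.946 CPM in any HG3 library. HLA-DQB2 passed in MEC2 against HG3 (log2 difference 6.87 ± 1.76, edgeR adjusted p = 0.0256) and HLA-DQA2 missed the threshold (5.31 ± 1.60, adjusted p = 0.0551). This order was opposite to that of HLA-DQA1 and HLA-DQB1, which were lower in MEC2 than in HG3. Whether the counts are transcripts of these genes or reads of HLA-DQA1 and HLA-DQB1 alleles assigned to them was not tested.

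In PCL12 replicate 1 the pair was almost absent, with 0.288 CPM of HLA-DQA2 and 0 counts of HLA-DQB2 in the unstimulated library. Replicates 2 and 3 held 4.81 and 4.92 CPM of HLA-DQA2 and 6.99 and 7.41 CPM of HLA-DQB2. Across stimulated and unstimulated libraries these were 25.5% to 47.6% of the MEC2 level of the same treatment, beside 29.1% to 31.3% for the 45 genes named above, among which neither gene was counted. The PCL12 libraries thus disagree on whether the pair is expressed.

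The genes of HLA-DO, which restrains HLA-DM, showed no called difference. HLA-DOA was at 94.4, 13.4 and 42.0 CPM in HG3, 39.0, 42.5 and 49.7 CPM in MEC2 and 46.9, 30.8 and 40.04 CPM in PCL12 (edgeR adjusted p = 0.887 and 0.704 against HG3). HLA-DOB was low, at 1.45 to 1.78 CPM in HG3, 3.68 to 6.39 CPM in MEC2 and 2.58 to 3.32 CPM in PCL12, and its log2 difference of 1.58 ± 0.54 between MEC2 and HG3 missed the threshold (adjusted p = 0.0631). Against HG3, 4.81% of all tested genes were higher and 4.97% lower in MEC2, and 4.57% were lower in PCL12. Of the 8 relatives tested, 1 was higher and 2 were lower in MEC2 than in HG3 and 2 were lower in PCL12. The pseudogene HLA-DPB2 was among the lower ones in both, with 0 to 1.01 CPM in unstimulated HG3 and 0 counts in all 12 libraries of the other lines, and the DR pseudogene HLA-DRB6 in MEC2 (-1.70 ± 0.53, adjusted p = 0.0388).

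**Figure D5:**
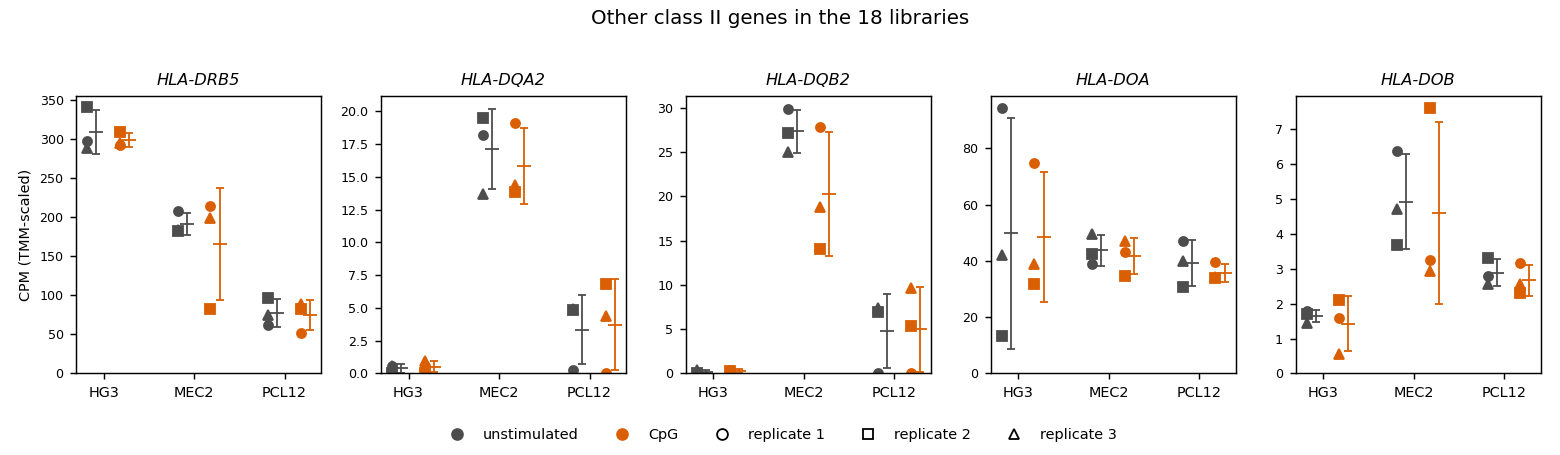
Levels of HLA-DRB5, HLA-DQA2, HLA-DQB2, HLA-DOA and HLA-DOB in the 18 libraries (CPM scaled with TMM factors, linear axes from 0), with colours, symbols and bars (mean and SD, n = 3) as in the plot of the members. HLA-DQA2 and HLA-DQB2 are near 0 in HG3 and in replicate 1 of PCL12, and intermediate in replicates 2 and 3 of PCL12.

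Of the factors that recruit CIITA, none was called in MEC2 against HG3 and 1 in PCL12. Over all tested genes, 4.81% were called higher and 4.97% lower in MEC2, and 4.87% and 4.57% in PCL12. RFX5, RFXAP and RFXANK encode the RFX complex. RFX5 was at 107 ± 33.2 CPM in HG3, 162 ± 19.6 CPM in MEC2 and 156 ± 10.0 CPM in PCL12 (edgeR adjusted p = 0.137 and 0.186 against HG3). RFXAP stood at 10.6 ± 3.89, 16.8 ± 5.32 and 14.7 ± 5.64 CPM and RFXANK at 43.7 ± 9.38, 47.6 ± 12.5 and 55.7 ± 15.4 CPM in the same order (SD, n = 3), neither past the threshold in any line. Of the 7 genes of the list, which adds NF-Y and CREB1, the NF-Y subunit gene NFYA alone passed, lower in PCL12 than in HG3 (-0.99 ± 0.25, adjusted p = 0.00831). It is named here, as are CTSZ in MEC2, CLEC16A, NUBP1, TAP1 and the neighbours RING1 and TAPBP in MEC2 below, after its values had been seen.

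Among 15 genes that act on CIITA, 2 were higher and 1 lower in MEC2 than in HG3, and 1 was higher and 1 lower in PCL12. The shares of all tested genes were 4.81% higher and 4.97% lower in MEC2, and 4.87% and 4.57% in PCL12. SOCS1, an inhibitor of cytokine receptor signaling, was lower in both, at 102 ± 38.7 CPM in HG3, 25.2 ± 6.14 CPM in MEC2 and 35.3 ± 6.97 CPM in PCL12 (edgeR adjusted p = 6.53e-05 and 0.00131). PAX5, the transcription factor that maintains B-cell identity, was higher in both, with 133 ± 56.7, 404 ± 149 and 366 ± 75.5 CPM (adjusted p = 0.000591 and 0.00156). PRDM1, the repressor that silences CIITA in plasma cells, ranged from 16.9 to 65.0 CPM over the 18 libraries. It was 2.69-fold lower in MEC2 than in PCL12, which missed the adjusted threshold (edgeR adjusted p = 0.103) and met the DEG definition of the study, but not without PCL12 replicates 2 and 3 (-1.46 ± 0.59, adjusted p = 0.363).

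Proteases that degrade antigen and the invariant chain did not move as 1 group. Of 9 genes tested, 2 were higher and 1 was lower in MEC2 than in HG3, and 3 were higher in PCL12. Among all tested genes, 4.81% were higher and 4.97% lower in MEC2, and 4.87% were higher in PCL12. CTSZ, a cathepsin gene, rose from 114 ± 25.1 CPM in HG3 to 221 ± 15.8 CPM in MEC2 and 319 ± 79.3 CPM in PCL12 (edgeR adjusted p = 0.0116 and 0.000153). CTSD, which encodes cathepsin D, was 17.7 ± 1.25 CPM in MEC2 against 49.0 ± 10.1 CPM in HG3 and 49.5 ± 26.9 CPM in PCL12 (adjusted p = 0.00297 and 0.0105). CTSV was called higher in both lines but did not exceed 3.30 CPM in any unstimulated library, and CTSB was 1.15 ± 0.37 higher in PCL12 on the log2 scale (adjusted p = 0.0444). CTSS, the cathepsin that trims the invariant chain in B cells, had 77.0 ± 11.5, 68.0 ± 25.0 and 80.4 ± 29.3 CPM in HG3, MEC2 and PCL12 and was not called.

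Of 3 genes that control class II at the cell surface, 1 was called lower and 1 higher in MEC2 than in HG3. MARCH8, a further ubiquitin ligase, was not called. In this comparison 4.97% of all tested genes were lower and 4.81% higher. CD83, which protects class II from the ubiquitin ligase MARCH1, was 5.57-fold lower in MEC2 than in HG3 (500 ± 271 against 89.7 ± 39.8 CPM, edgeR adjusted p = 0.0420), and in PCL12 it stood at 101 ± 68.2 CPM, 4.96-fold below HG3, which missed the threshold (adjusted p = 0.0584). MARCH1 itself was called higher in MEC2 (adjusted p = 0.0296) at levels of 0.484 to 2.41 CPM. Of 4 partners of CD74 as a surface receptor, CD44 was lower in MEC2 than in HG3 and in PCL12 (158 ± 13.5, 602 ± 318 and 392 ± 62.3 CPM, adjusted p = 0.000199 and 0.0287), and CXCR4 was lower in PCL12 than in HG3 (-2.69 ± 0.64, adjusted p = 0.0134). Over all tested genes, 4.97%, 1.53% and 4.57% were lower in these comparisons.

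Genes beside the members on the chromosome were also compared. Of 7 neighbours in the class II region that do not encode class II chains, 2 were lower in MEC2 (RING1 and TAPBP) and 4 in PCL12 than in HG3 (TAPBP, RING1, BRD2 and TAP1). TAPBP, which encodes tapasin of the class I pathway, fell from 487 ± 102 CPM in HG3 to 267 ± 33.8 CPM in MEC2 and 192 ± 18.3 CPM in PCL12 (edgeR adjusted p = 0.0212 and 0.000425). PSMB9, an immunoproteasome subunit, was 2.17-fold higher in MEC2 than in PCL12 (adjusted p = 0.0295). Of 4 neighbours of CIITA, CLEC16A (-0.83 ± 0.24, adjusted p = 0.0244) and NUBP1 (-0.79 ± 0.25, adjusted p = 0.0478) were lower in PCL12 than in HG3, as were 4.57% of all tested genes. Across all 57 list genes tested, the unpaired edgeR fit called 0 after CpG in each line, as did DESeq2 and limma-voom. In HG3, MEC2 and PCL12, 2, 2 and 1 had an unadjusted p under 0.05 in edgeR. Over all tested genes these shares were 3.73%, 2.46% and 2.09%. With the replicate pairs as a block, CD83 was called higher in MEC2 (Log2FC 0.97 ± 0.21, edgeR adjusted p = 0.00283), among 0.295% of tested genes, and in PCL12 (0.91 ± 0.21, adjusted p = 0.0325). The unpaired fit without PCL12 replicates 2 and 3 gave 1.17 ± 0.86 for CD83 in PCL12 (edgeR adjusted p = 1.00). In the paired fit CD83, CD44 and IRF8 were called higher for the mean effect over the lines, as were 0.417% of tested genes. They were named after their values had been seen. The spread of the median gene in that fit came wholly from the trend over all genes. Values of these 3 genes without CpG-stimulated MEC2 replicate 2 are not given here.

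Likeness over the 18 libraries was described by Pearson's r of log2 CPM among 10659 genes. Nearest to HLA-DRA were HLA-DRB1 (0.983), HLA-DPA1 (0.981), HLA-DQB1 (0.981), IFNGR1 (0.979) and HLA-DPB1 (0.977). CD74 ranked 187th (0.891) and CIITA 7618th (-0.379), and HLA-DMB ran opposite to HLA-DRA (-0.739). Nearest to CIITA were RNF121 (0.856), AC006001.3 (0.824), SPRYD4 (0.822), PIEZO1 (0.822) and NR6A1 (0.818), and none of the members was among them. These values describe libraries that share 3 cell lines and were not tested, and by rank correlation 2 of the 5 genes were shared in each case.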

How the data were processed

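The 18 libraries were assigned to cell line, treatment and replicate by the labels, and no column of other samples was present. The values are raw gene counts as deposited by the authors. Per the submitters' processing notes, reads were processed with FastQC, MultiQC, Trimmomatic, STAR and featureCounts on hg38, and the annotation, the strand setting and the handling of reads that match several genes are not given in the sources used here. The labels name a Lexogen QuantSeq library and a Promega RNA kit, whereas the methods name a Qiagen kit and a stranded reverse protocol with single reads of 100 nt. Levels were therefore not compared between genes. HLA genes are polymorphic and have near copies, so reads of an allele unlike the reference may be lost or assigned elsewhere, and HLA-DPA1 and HLA-DPB1 overlap on opposite strands.

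Genes with at least 10 counts over all libraries (31872 of 42248 with at least 1 count) were fitted in edgeR 4.0.16 (R 4.3.3) with TMM factors, 6 group means, robust quasi-likelihood tests and 12 residual degrees of freedom, with Benjamini-Hochberg adjustment over all genes. CPM use TMM factors, and log2 CPM a prior count of 2. The limit for a count of 0 (3 counts) covers counting error only, while SDs and SEs include the spread between libraries. With 3 libraries against 3 an exact permutation test cannot go below p = 0.1, so p values come from the fits, and they measure the spread between these samples, which may be technical. Alternatives were DESeq2 1.42.0, limma-voom (limma 3.58.1), RLE factors, library totals, filterByExpr, no filter, fits of the compared groups alone, fits without doubtful libraries or each library in turn, and a block. The code was tested on simulated data.

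The series text says that each replicate series held 1 stimulated and 1 control sample, which pairs replicates within a line. Over all 31872 tested genes, deviations of paired libraries from their group means correlated at -0.0785 to 0.327, over 0.1 in 5 of 9 pairs. Among the 10659 genes whose mean level reached 5 CPM, a restriction added after those values and the calls of the blocked fit had been seen, the range was 0.0853 to 0.735, over 0.1 in 8 of 9 pairs. The pairing thus rests on the series text, and neither range was used to choose it. Between lines no such pairing is stated.

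The members, the 8 gene lists (59 genes, 57 tested) and the tests were chosen with earlier results of these data known. Named are all members, of each list up to 4 called genes with |Log2FC| of at least 1 and the smallest P, a set of class II and RFX genes whatever their values, the 5 genes most like HLA-DRA and CIITA, and NFKBIZ. IFI30 and HLA-DPA2 had too few counts to be tested. The values of 1 list gene are not reported here, though it enters the list counts.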

Additional observations from a re-analysis of the deposited data

How the results depend on the processing

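The 6 chain genes kept their direction against HG3 in every fit run. Lower members numbered 4 to 7 of 10 in MEC2 and 5 to 7 in PCL12 over the alternatives, and 4 to 7 and 6 to 7 when single libraries were left out. Between lines the samples share only a replicate number. With it as a block, CD74 was lower in MEC2 (edgeR adjusted p = 0.0487) and HLA-DMB higher in both lines (adjusted p = 0.0216 and 0.0264), and no other call of a member between unstimulated lines changed. Between stimulated lines it added HLA-DMB as higher than in HG3 in MEC2 and PCL12 (adjusted p = 0.00668 and 0.0350). With this block or without a filter, 1 member (HLA-DMB) was higher than in HG3 in each line, and leaving out single libraries gave 0 to 1 in both. Higher members in MEC2 against PCL12 numbered 1 with DESeq2, 2 in the fit of the compared groups alone, 4 without the 2 libraries rich in mitochondrial counts, and 0 to 1 without single libraries.

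After CpG the replicate block gave 1 called member in MEC2 and 1 for the mean effect, CIITA in both, in place of 0, and without CpG-stimulated MEC2 replicate 2 the blocked fit gave 0. The block changed no other call of a member after CpG. At the DEG definition CIITA in MEC2 was lost (0 in place of 1) with limma-voom, the block, library totals, filterByExpr, the compared groups alone and without the 2 libraries rich in mitochondrial counts, and leaving out single libraries gave 0 to 1, with 0 in 11 of 18 fits.

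In the main fit, 4.97% of all tested genes were lower and 4.81% higher in MEC2 than in HG3, and 4.57% and 4.87% in PCL12. Between MEC2 and PCL12, 1.53% of all tested genes were lower and 0.524% higher in MEC2. List genes lower in MEC2 than in HG3 numbered 8, but 5 in the compared groups alone and 3 to 8 without single libraries, and higher ones 6, but 10 with DESeq2. In PCL12 against HG3, 11 were lower, but 2 without PCL12 replicates 2 and 3, 7 in the compared groups alone and 5 to 12 without single libraries, and 4 were higher, but 8 without a filter and 2 without PCL12 replicates 2 and 3 or in the compared groups alone. Between MEC2 and PCL12, 2 were lower, but 1 with limma-voom or without PCL12 replicates 2 and 3 and 0 to 3 without single libraries, and 2 were higher, but 6 with DESeq2, without the mitochondria-rich libraries or in the compared groups alone, 7 without a filter and 0 to 5 without single libraries. By Spearman, 2 of the 5 genes most like CIITA and 2 of those most like HLA-DRA were shared.

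Differences of members that changed sign were all uncalled, as were those of the relatives HLA-DQA2 (2.95 to -0.55) and HLA-DQB2 (4.36 to -6.05) in PCL12 against HG3 without PCL12 replicates 2 and 3. CIITA in PCL12 against HG3 was -0.0042 without the 2 mitochondria-rich libraries, and in MEC2 against HG3 ranged from -0.49 to 0.14 without single libraries. In MEC2 against PCL12, without PCL12 replicates 2 and 3, HLA-DQB1 was -0.24 and CD74 -0.33, and HLA-DMB was 0.033 with limma-voom, 0.035 with the block and 0.012 with filterByExpr. Without single libraries HLA-DQB1 ranged from -0.056 to 0.40, HLA-DMA from -0.29 to 0.26, HLA-DMB from -0.18 to 0.23 and CD74 from -0.024 to 0.37. The cause of these changes was not tested.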
